A study of Mus musculus with 84 samples.

Results

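This report describes 10 genes of the lipid droplet, Cidea, Cideb, Cidec, Plin2, Plin4, Plin5, Pnpla2, G0s2, Mogat1 and Hsd17b13, in liver and epididymal white adipose tissue (eWAT) of diet-induced obese (DIO) mice. They were chosen by symbol, with earlier results of these data known, and are 10 of the 48794 genes in the deposited tables. Male C57BL/6J mice on a high-fat diet (60% fat), 22 weeks old at the start and housed singly, were dosed subcutaneously each day for 30 days. They received vehicle, semaglutide (20 or 100 nmol/kg) or BI 456906 at one of 4 doses (3, 10, 20 and 30 nmol/kg). BI 456906 is a dual agonist, of the receptors for glucagon and for GLP-1, and semaglutide acts on the GLP-1 receptor alone. RNA was sequenced from 6 mice of each of the 7 groups in each tissue, 84 libraries in all. All groups, vehicle included, were obese at the start and on the same diet, and no lean group was analysed here. The paper reports that both compounds lowered bodyweight, fat mass and liver triglycerides over the dosing. At most doses the treated groups thus differed from vehicle in these at sampling. For fat mass the paper names no significant fall at BI 456906 3 nmol/kg.

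Lipid droplets store triglyceride behind a single layer of phospholipid that is covered by proteins. The CIDE proteins (Cidea, Cideb, Cidec) act where droplets touch and pass lipid from the smaller to the larger droplet. Cidec is abundant in white adipocytes, Cideb in hepatocytes, where it also serves the lipidation of very-low-density lipoprotein, and Cidea is known from brown fat and from fatty liver. The perilipins (Plin2, Plin4, Plin5) coat the droplet and control the access of lipases. Pnpla2 encodes adipose triglyceride lipase, which takes the first fatty acid from triglyceride, and G0s2 encodes a protein that inhibits it. Mogat1 encodes an acyltransferase that makes diacylglycerol from monoacylglycerol, and Hsd17b13 a droplet enzyme of hepatocytes. Several of these genes are known to rise in steatotic liver.

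Between 21676902 and 53869104 reads were assigned to genes per liver library and between 37573004 and 53996914 per eWAT library. Levels are given in TPM, the share of transcripts corrected for gene length, and as the lowest, the median and the highest of 6 libraries. Marker genes matched the labelled tissues. The 7 hepatocyte markers summed to 74599.6 to 117137 TPM in liver, and the 7 adipocyte markers to 9896 to 34186 TPM in eWAT. In liver the adipocyte markers summed to 20.8 to 85.2 TPM. Of the 7, Adipoq, Lep, Retn and Plin1 were at most 0.55 TPM, while Fabp4 (10.4 to 52.6 TPM), Lipe (7.72 to 15.7 TPM) and Cfd (0 to 18.7 TPM) were measured there. In eWAT the hepatocyte marker Alb ranged from 3.47 to 3679.7 TPM, and its values are given beside the members that moved with it. One liver library of BI 456906 30 nmol/kg, replicate 70, stood apart in genes not described here, and leaving it out changed none of the 10 counts of passing members and none of the 21 liver values recomputed without it. The tissues are bulk samples, in which fewer cells of a type and less RNA per cell cannot be told apart.

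Promoter windows, from 250 bases before to 50 bases after the annotated start (RefSeq, build GRCm38.p6), were found for 9 of the 10 genes, in 11 windows. They were searched on both strands for AGGTCA, the half-site bound by nuclear receptors, which 16.3% of all 32851 windows held, and for a pair of AGGNCA half-sites spaced by 1 base (the DR1 layout bound by PPAR), which 0.381% held. The pair was in none of the 11 windows, and the half-site was in 4, those of Plin2 and Hsd17b13 and both windows of Plin5. One window of each of these genes is shown, because in liver, as given below, the transcript of Plin5 rose, that of Hsd17b13 fell and that of Plin2 passed the test at no dose. Mogat1, with the second largest fall, is shown for comparison. The sequences run 5′ to 3′ on the strand of the gene, and capitals mark the half-site (AGGTCA or, on the other strand, TGACCT). In the second Plin5 window (chr17:56117249-56117548), not shown, it begins 13 bases after the start. In the windows shown it begins 170 bases before the start in Plin5, 96 in Hsd17b13 and 218 in Plin2.
Plin5 (chr17:56117499-56117798, minus strand): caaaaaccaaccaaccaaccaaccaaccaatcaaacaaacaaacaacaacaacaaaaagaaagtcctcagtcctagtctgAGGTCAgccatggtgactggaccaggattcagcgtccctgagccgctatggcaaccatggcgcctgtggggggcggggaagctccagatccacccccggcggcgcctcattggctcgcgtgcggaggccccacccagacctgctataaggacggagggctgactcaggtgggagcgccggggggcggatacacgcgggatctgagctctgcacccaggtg
Hsd17b13 (chr5:103977339-103977638, minus strand): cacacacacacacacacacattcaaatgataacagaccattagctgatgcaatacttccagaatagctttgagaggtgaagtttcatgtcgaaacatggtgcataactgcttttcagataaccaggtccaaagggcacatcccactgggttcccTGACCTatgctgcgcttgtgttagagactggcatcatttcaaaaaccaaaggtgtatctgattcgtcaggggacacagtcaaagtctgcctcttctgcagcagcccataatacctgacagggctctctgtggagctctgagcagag
Plin2 (chr4:86670010-86670309, minus strand): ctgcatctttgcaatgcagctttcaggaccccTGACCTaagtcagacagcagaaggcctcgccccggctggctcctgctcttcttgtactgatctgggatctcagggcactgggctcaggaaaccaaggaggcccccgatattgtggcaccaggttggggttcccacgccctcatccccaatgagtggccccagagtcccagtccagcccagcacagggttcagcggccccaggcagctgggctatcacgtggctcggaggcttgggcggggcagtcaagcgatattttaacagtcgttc
Mogat1 (chr1:78510810-78511109, plus strand): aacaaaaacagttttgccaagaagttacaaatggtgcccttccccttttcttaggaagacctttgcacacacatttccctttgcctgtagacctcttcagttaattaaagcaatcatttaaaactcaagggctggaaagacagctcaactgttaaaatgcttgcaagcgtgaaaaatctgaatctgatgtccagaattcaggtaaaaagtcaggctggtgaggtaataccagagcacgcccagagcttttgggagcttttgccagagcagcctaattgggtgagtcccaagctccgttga

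In vehicle-treated DIO mice the 10 genes took different places in the 2 tissues. In liver, Plin2 (697, 777 and 912 TPM), Hsd17b13 (513, 780.2 and 929 TPM) and G0s2 (359, 503 and 779.7 TPM) were the most abundant, with overlapping ranges. Cideb followed with 326, 341 and 353 TPM, below the range of G0s2. Cidec (33, 138 and 165 TPM), Plin5 (84.3, 96.5 and 116 TPM) and Pnpla2 (65, 94.7 and 107 TPM) came next and overlapped one another, then Cidea (6.18, 42.5 and 55.6 TPM) and Plin4 (19.7, 31.5 and 56.7 TPM), and last Mogat1 (5.21, 10.6 and 14.9 TPM), which was below Plin4 but overlapped the lowest Cidea library. In eWAT, Cidec stood first with 1956, 2284 and 3989 TPM, overlapping Plin2 at 1310.4, 1689 and 2194 TPM, which in turn overlapped Pnpla2 at 984, 1185 and 1957 TPM. Plin4 reached 522, 623 and 1161 TPM and G0s2 189, 280.0 and 369.7 TPM. The other 5 genes were lower, with Plin5 at 8.2, 10.2 and 12 TPM, Mogat1 at 6.45, 9.63 and 25.6 TPM and Cidea at 4.3, 5.1 and 8.1 TPM, and with Hsd17b13 (0.28, 17.1 and 50.9 TPM) and Cideb (0.24, 8.67 and 28.1 TPM) spread across the ranges of the other 3. The tables of the tissues were made apart, and no test was run between these levels.

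**Figure D1:**
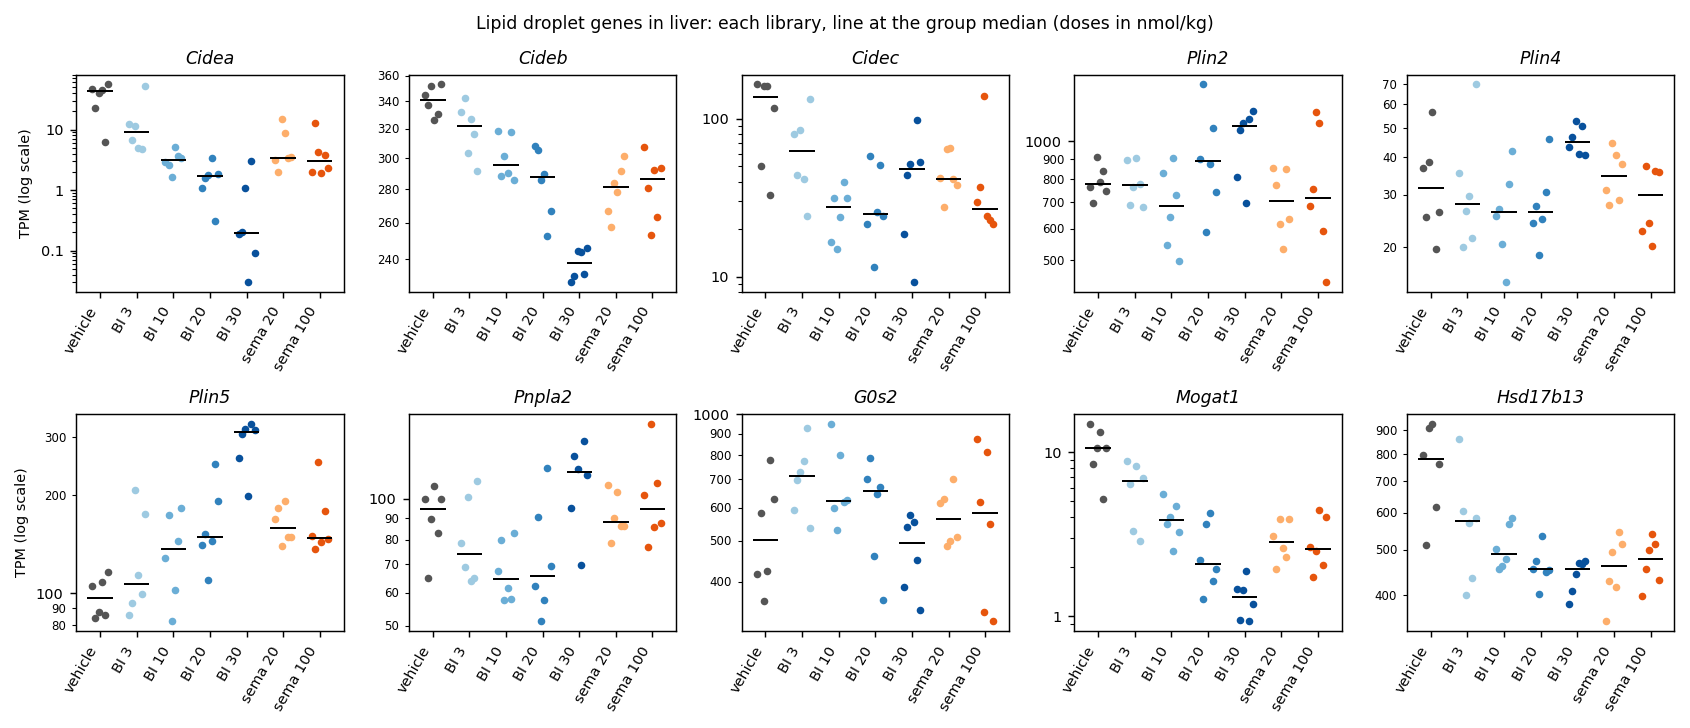
TPM of the 10 genes in liver, 1 panel per gene, on a log axis, with 1 point per library, a line at the median of 6, and doses in nmol/kg. Cidea, Cideb and Mogat1 step down with the dose of BI 456906, Plin5 is highest at 30 nmol/kg (median 312 TPM), and the points of Plin2 and G0s2 overlap those of vehicle in every group.

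In liver, 5 of the 10 genes fell and 1 rose after BI 456906 at 30 nmol/kg. Cidea, Cideb, Cidec, Mogat1 and Hsd17b13 fell, Plin5 rose, and Plin2, Plin4, Pnpla2 and G0s2 did not pass the test. The test was limma/voom in 1 fit over the 7 groups, and a gene passed when its false discovery rate (FDR), adjusted over the whole table of tested genes, was 0.05 or less. All 10 genes were tested in both tissues. Many genes responded in liver: 58.8% of 15964 passed at this dose (29.9% fell and 28.9% rose), and 6 of 10 is near that background. The median log2 fold change of the 10 was -0.41, against -0.034 over all genes tested. By the study's rule, which also asks for a log2 fold change of at least 1 in size, 4 of the 10 were called (Cidea, Cidec and Mogat1 down, Plin5 up) with a background of 12.9%.

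The same 6 genes passed, each in the same direction, at semaglutide 100 nmol/kg (background 48.2%), semaglutide 20 nmol/kg (46.5%) and BI 456906 20 nmol/kg (45.9%). By the study's rule 3 of them, Cidea, Cidec and Mogat1, were called at semaglutide 100 nmol/kg, where the background was 6.75%. At BI 456906 10 nmol/kg the 5 genes fell and Plin5 did not pass, while Pnpla2 fell as well, 6 of 10 with a background of 37.5%. At 3 nmol/kg, 3 of the 10 passed (Cidea, Mogat1 and Hsd17b13, all lower), with a background of 13.4%. The call of Cidea there held in 5 of 10 other settings, those of Mogat1 and Hsd17b13 in 9 of 11 each, and that of Cidec at semaglutide 20 nmol/kg in 8 of 11. All of these comparisons share the 6 vehicle libraries. Over the doses of BI 456906 from vehicle to 30 nmol/kg the linear trend passed for the same 6 genes, with a background of 58.9%.

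Of the CIDE genes, Cidea fell the furthest. Its level in liver was 6.18, 42.5 and 55.6 TPM on vehicle, 4.76, 9.04 and 51.5 at BI 456906 3 nmol/kg, 1.67, 3.12 and 5.06 at 10, 0.31, 1.68 and 3.34 at 20 and 0.03, 0.195 and 2.99 TPM at 30 nmol/kg. From 10 nmol/kg upwards no library reached the lowest vehicle library. That library, replicate 47, was also the lowest of the vehicle group in liver for Cidec, Mogat1 and Plin4. The log2 fold change was -3.39 ± 0.62 (SE) at 10 nmol/kg (FDR 4.53e-05) and -6.75 ± 1.32 at 30 nmol/kg (FDR 3.51e-05). At 30 nmol/kg the libraries held between 1 and 87 reads on Cidea, and the size of the change rests on these few reads: over 10 other ways of processing it ranged from -7.06 to -4.32 and passed in each. At 3 nmol/kg 1 library, replicate 54, kept 51.5 TPM, inside the vehicle range. Semaglutide left 2.01, 3.44 and 15.1 TPM at 20 nmol/kg and 1.91, 3.06 and 13.1 TPM at 100 nmol/kg, with log2 fold changes of -2.72 ± 0.55 (FDR 9.91e-05) and -3.19 ± 0.60 (FDR 3.75e-05), and the highest library of each group lay inside the vehicle range.

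Cideb, the CIDE gene most at home in hepatocytes, changed little but with little spread. It stood at 326, 341 and 353 TPM on vehicle and at 228, 238 and 246 TPM at BI 456906 30 nmol/kg, with group medians of 322, 296 and 288 TPM at 3, 10 and 20 nmol/kg. The groups did not overlap vehicle from 10 nmol/kg upwards, and the log2 fold change at 30 nmol/kg was -0.60 ± 0.062 (FDR 2.77e-10). Semaglutide gave 258, 281 and 301 TPM at 20 and 253, 286 and 307 TPM at 100 nmol/kg, also without overlap with vehicle (-0.35 ± 0.062 at 100 nmol/kg, FDR 1.7e-05).

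Cidec, by contrast, was spread widely within groups and did not fall step by step with the dose. Its levels were 33, 138 and 165 TPM on vehicle, 24.2, 62.2 and 133 at BI 456906 3 nmol/kg, 14.9, 27.6 and 39.6 at 10, 11.5, 24.9 and 57.9 at 20 and 9.21, 48.1 and 97.6 TPM at 30 nmol/kg. In every treated group the highest library lay above the lowest vehicle library, which was replicate 47 at 33 TPM. The log2 fold change was -2.09 ± 0.50 at 10 nmol/kg (FDR 0.00102), -1.92 ± 0.49 at 20 (FDR 0.00155) and -1.52 ± 0.49 at 30 nmol/kg (FDR 0.00717). The rise from 10 to 30 nmol/kg, 0.56 ± 0.50, did not pass (FDR 0.412). With semaglutide the levels were 27.5, 41.8 and 65.7 TPM at 20 nmol/kg (log2 fold change -1.20 ± 0.48, FDR 0.0396) and 21.4, 26.9 and 140.3 TPM at 100 nmol/kg (-1.57 ± 0.49, FDR 0.00763). In the last group 1 library, replicate 81, was at 140.3 TPM, inside the vehicle range.

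Of the perilipins in liver, Plin5 alone rose against vehicle. Plin5 is the perilipin of oxidative tissues and brings droplets together with mitochondria. Its level was 84.3, 96.5 and 116 TPM on vehicle, 85.7, 107 and 206 at 3, 82, 136 and 183 at 10, 110.0, 148 and 248 at 20 and 199, 312 and 331 TPM at 30 nmol/kg of BI 456906. The 6 libraries at 30 nmol/kg were all above the highest vehicle library, while at 20 nmol/kg the ranges still met. The log2 fold change was 0.62 ± 0.20 at 20 nmol/kg (FDR 0.0114) and 1.47 ± 0.21 at 30 nmol/kg (FDR 1.29e-07), a 2.77-fold rise. Semaglutide raised it to 139.7, 159 and 191 TPM at 20 nmol/kg and 137, 148 and 252 TPM at 100 nmol/kg, above every vehicle library in both groups (0.65 ± 0.20, FDR 0.00768, and 0.68 ± 0.20, FDR 0.00542).

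Plin2, the common droplet coat of hepatocytes and often read as a sign of stored lipid, passed at no dose of either compound. It stood at 697, 777 and 912 TPM on vehicle, 496, 686 and 905 at BI 456906 10 nmol/kg, 696, 1089 and 1188 at 30 nmol/kg and 439.5, 719 and 1184 TPM at semaglutide 100 nmol/kg. Its medians were 777 TPM on vehicle, 773, 686, 889 and 1089 TPM at 3, 10, 20 and 30 nmol/kg of BI 456906, and 703 and 719 TPM at 20 and 100 nmol/kg of semaglutide. The treated groups spread to both sides of vehicle, and the log2 fold change at 30 nmol/kg was 0.26 ± 0.20 (95% interval -0.14 to 0.66). Plin4, best known from adipocytes and muscle, was at 19.7, 31.5 and 56.7 TPM on vehicle and 40.8, 44.8 and 52.8 TPM at 30 nmol/kg, all inside the vehicle range (0.43 ± 0.24, FDR 0.131). The medians of Plin4 in the other treated groups were between 26.1 TPM (BI 456906 20 nmol/kg) and 34.5 TPM (semaglutide 20 nmol/kg). Plin4 (GRCm38 chr17:56100591-56109803) lies beside Plin5 (chr17:56111601-56117596) on the same strand, and the 2 neighbours were counted as separate genes.

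Neither the lipase nor its inhibitor passed against vehicle at the highest doses in liver. Pnpla2 was at 65, 94.7 and 107 TPM on vehicle, 57.8, 64.5 and 82.9 at BI 456906 10 nmol/kg and 69.8, 116 and 137 TPM at 30 nmol/kg, and both treated groups overlapped vehicle. At 10 nmol/kg it fell (-0.47 ± 0.19, FDR 0.0464), a call that held in 6 of 11 other settings. G0s2 was at 359, 503 and 779.7 TPM on vehicle, 538, 714 and 929 at 3 nmol/kg and 342, 494 and 577 TPM at 30 nmol/kg and passed in no comparison with vehicle. The medians of Pnpla2 were 94.7 TPM on vehicle, 73.9, 64.5, 65.8 and 116 TPM at 3, 10, 20 and 30 nmol/kg of BI 456906, and 88.1 and 94.8 TPM at 20 and 100 nmol/kg of semaglutide. Those of G0s2 were 503 TPM on vehicle, 714, 622, 658 and 494 TPM at 3, 10, 20 and 30 nmol/kg of BI 456906, and 563 and 583 TPM at 20 and 100 nmol/kg of semaglutide. The direction of G0s2 at semaglutide 100 nmol/kg (0.013) turned when library size alone was used for scaling.

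Between 10 and 30 nmol/kg of BI 456906, a contrast added after the values had been seen, 6 of the 10 genes passed in liver, with a background of 25.5%. Plin5 (1.13 ± 0.21, FDR 0.000254), Plin4 (0.88 ± 0.24, FDR 0.00698), Pnpla2 (0.70 ± 0.19, FDR 0.00647) and Plin2 (0.58 ± 0.19, FDR 0.0263) were higher at 30 than at 10 nmol/kg. Mogat1 (-1.44 ± 0.35, FDR 0.00315) and Cideb (-0.30 ± 0.062, FDR 0.000633) were lower. The 3 perilipins and the lipase were thus higher at the top dose than at 10 nmol/kg, and of these 4 genes Plin5 alone passed against vehicle there.

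Mogat1 fell in liver at every dose. Its levels were 5.21, 10.6 and 14.9 TPM on vehicle, 2.88, 6.66 and 8.81 at 3, 2.48, 3.83 and 5.54 at 10, 1.28, 2.08 and 4.25 at 20 and 0.93, 1.31 and 1.88 TPM at 30 nmol/kg of BI 456906. The median fell at each step, and the groups at 20 and 30 nmol/kg did not overlap vehicle. Its log2 fold change was -0.88 ± 0.22 at 3 nmol/kg (FDR 0.00726) and -3.02 ± 0.32 at 30 nmol/kg (FDR 5.17e-10), 8.14-fold lower, and the trend was -0.90 ± 0.10 per 10 nmol/kg (FDR 3.92e-10). Semaglutide left 1.93, 2.84 and 3.91 TPM at 20 nmol/kg and 1.73, 2.56 and 4.41 TPM at 100 nmol/kg, both below every vehicle library (-1.82 ± 0.25 and -2.02 ± 0.26, FDR 4.43e-07 and 1.29e-07).

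Hsd17b13 fell by less, from a far higher level. It stood at 513, 780.2 and 929 TPM on vehicle, 400.1, 577 and 862 at 3 nmol/kg, 455, 491 and 585 at 10, 403, 454 and 535 at 20 and 384, 455 and 474 TPM at 30 nmol/kg of BI 456906. The group at 30 nmol/kg lay below every vehicle library, and those at lower doses reached into the vehicle range. Its change on the log2 scale was -0.45 ± 0.13 at 3 nmol/kg (FDR 0.0176) and -0.82 ± 0.13 at 30 nmol/kg (FDR 1.16e-06). Between 10 and 30 nmol/kg it differed by only -0.16 ± 0.13 (FDR 0.365). At semaglutide 100 nmol/kg it was 398, 478 and 541 TPM (-0.72 ± 0.13, FDR 2.13e-05).

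**Figure D2:**
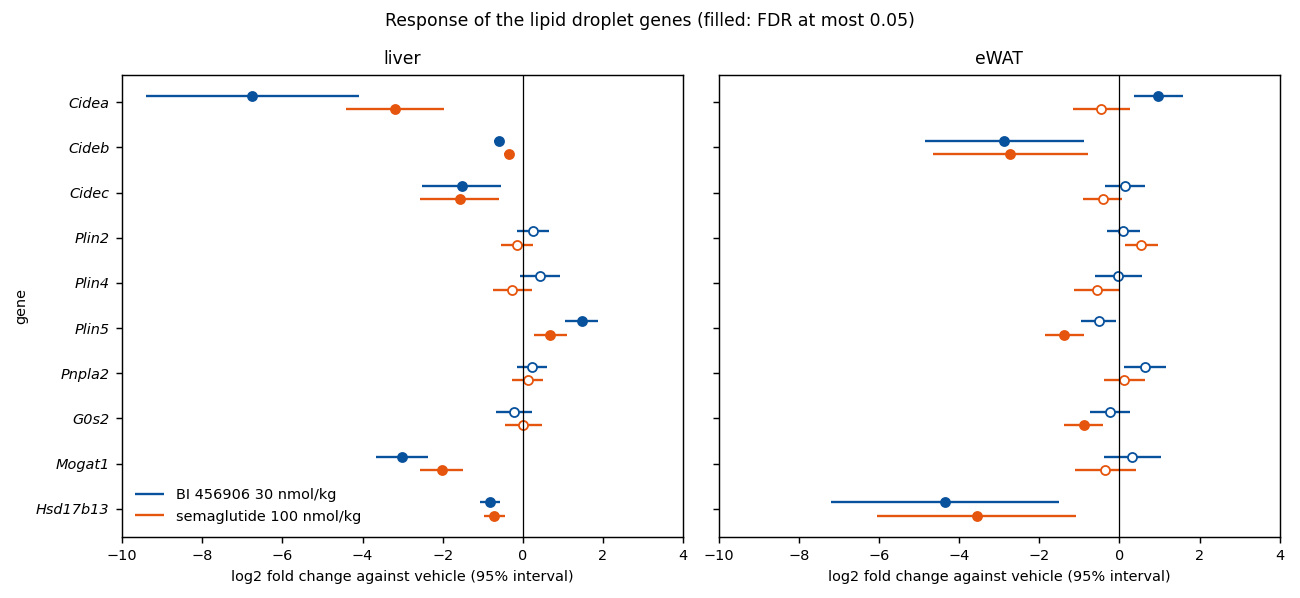
Log2 fold change of each gene against vehicle with its 95% interval, for BI 456906 30 nmol/kg (blue) and semaglutide 100 nmol/kg (orange), in liver (left) and eWAT (right), with filled points for an FDR of at most 0.05. In liver Cidea (-6.75) and Mogat1 (-3.02) lie furthest left at BI 456906 30 nmol/kg and Plin5 (1.47) furthest right, and in eWAT most points are open.

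In eWAT fewer of the 10 genes passed. After BI 456906 30 nmol/kg, Cidea rose and Cideb and Hsd17b13 fell, 3 of 10 with a background of 23.9%, of which Cideb and Hsd17b13 also met the study's rule (background 6.34%). After semaglutide 100 nmol/kg, Plin5, G0s2, Cideb and Hsd17b13 fell, 4 of 10 with a background of 14.9%, and all but G0s2 met the study's rule (background 4.13%). Plin5 fell also at semaglutide 20 nmol/kg (6.33%) and BI 456906 10 nmol/kg (0.513%), 1 of 10 each. No member passed at BI 456906 20 nmol/kg (background 4.27%) or at 3 nmol/kg (0.00539%). At 20 nmol/kg 3 members had an unadjusted p under 0.05, and edgeR and DESeq2 called 2 each. Over all 18536 genes 3820 had such a p there, edgeR called 1386 and DESeq2 1980. At 3 nmol/kg 1 member had an unadjusted p under 0.05, and edgeR and DESeq2 called 0 each. Over all genes 1656 had such a p there, edgeR called 0 and DESeq2 136. The trend over the doses of BI 456906 passed for Cidea, Pnpla2, Cideb and Hsd17b13, with a background of 29.5%. Between 10 and 30 nmol/kg, the contrast added after the values had been seen, Cidea (1.42 ± 0.32, FDR 0.00688) and Pnpla2 (0.84 ± 0.26, FDR 0.024) were higher at the higher dose. The background there was 17.5%.

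**Figure D3:**
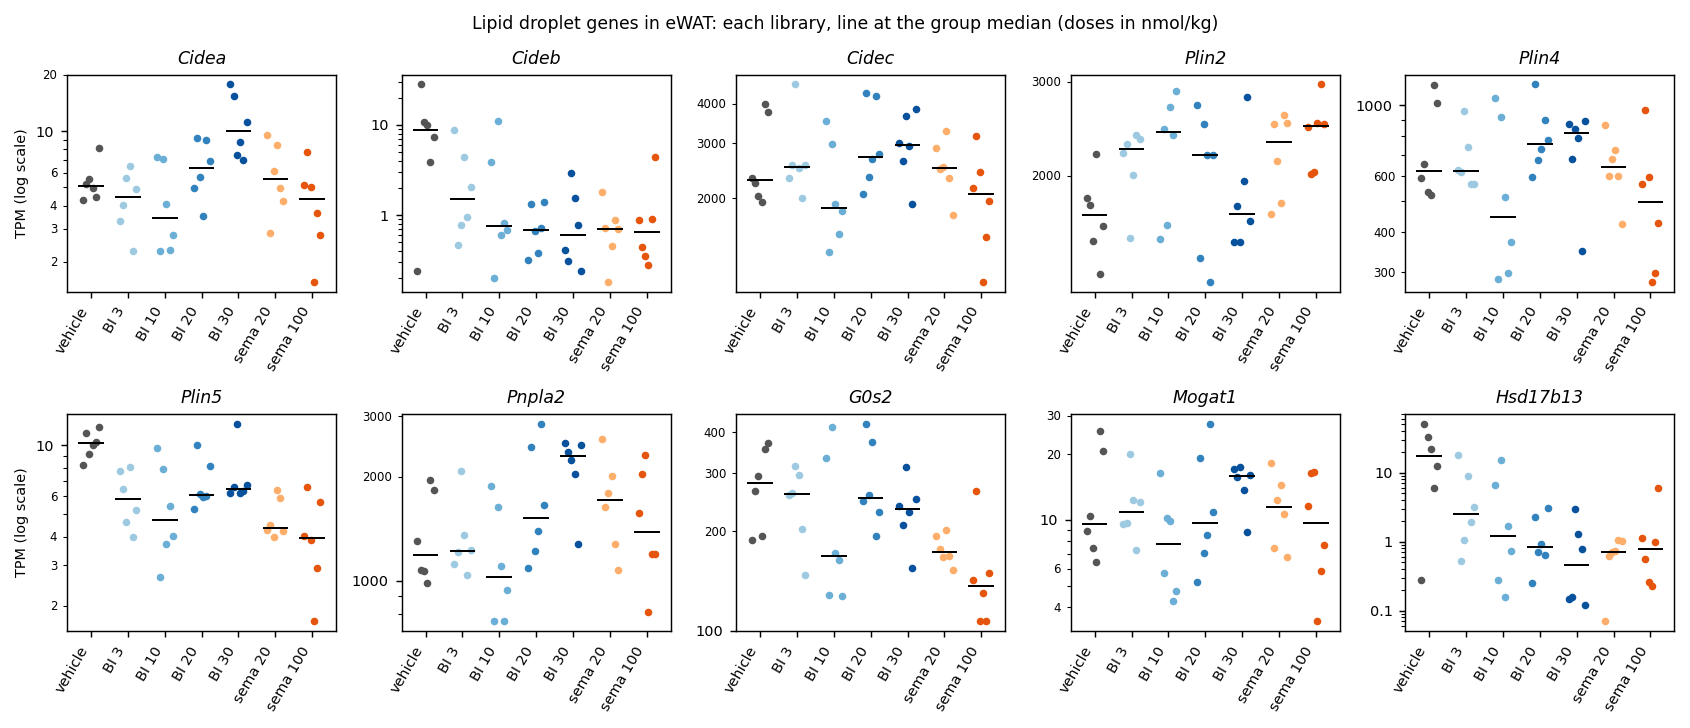
TPM of the 10 genes in eWAT, drawn as for liver with 1 point per library and a line at the median of 6 (log axis, doses in nmol/kg). Cidec, Plin4 and Mogat1 show no group apart from vehicle, Plin5 is below vehicle in most libraries, and Cideb and Hsd17b13 spread over more than 2 orders of magnitude within vehicle.

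Cidea, a gene of brown and beige adipocytes, was low in this white fat depot and rose at the top dose of BI 456906. It was at 4.3, 5.1 and 8.1 TPM on vehicle, 3.52, 6.33 and 9.19 at 20 nmol/kg, 6.98, 9.98 and 17.8 at 30 nmol/kg and 1.56, 4.35 and 7.7 TPM at semaglutide 100 nmol/kg. At 30 nmol/kg 4 of the 6 libraries were above the highest vehicle library and the other 2 inside the vehicle range. The log2 fold change was 0.97 ± 0.31 at 30 nmol/kg (FDR 0.0196) and -0.45 ± 0.35 at semaglutide 100 nmol/kg (FDR 0.411). In liver the same gene fell by 6.75 on the log2 scale at that dose.

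Plin5 moved in eWAT against its course in liver. Its level was 8.2, 10.2 and 12 TPM on vehicle, 3.98, 5.83 and 8.02 at BI 456906 3 nmol/kg, 2.68, 4.72 and 9.75 at 10, 5.28, 6.09 and 10.1 at 20 and 6.18, 6.45 and 12.4 TPM at 30 nmol/kg. It was lowest on semaglutide, with 4, 4.38 and 6.38 TPM at 20 nmol/kg and 1.71, 3.96 and 6.61 TPM at 100 nmol/kg, both below every vehicle library. The group at BI 456906 3 nmol/kg also lay below vehicle, and its change of -0.80 ± 0.22 did not pass (FDR 0.283). The log2 fold change was -1.09 ± 0.23 (FDR 0.00288) and -1.38 ± 0.24 (FDR 0.000168) for semaglutide and -0.99 ± 0.23 (FDR 0.0341) for BI 456906 10 nmol/kg, the last a call that held in 4 of 11 other settings. At 30 nmol/kg the change of -0.52 ± 0.21 did not pass (FDR 0.0664).

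In eWAT the ratio of Pnpla2 to its inhibitor G0s2 was above vehicle in some treated groups, but in no group did both genes pass. Pnpla2 was at 984, 1185 and 1957 TPM on vehicle and 1281, 2305 and 2509.5 TPM at BI 456906 30 nmol/kg, a difference of 0.63 ± 0.26 that did not pass (FDR 0.0732), while its trend over the doses was positive and passed (0.23 ± 0.074 per 10 nmol/kg, FDR 0.0207). G0s2 was at 189, 280.0 and 369.7 TPM on vehicle and 107, 137 and 266 TPM at semaglutide 100 nmol/kg, where it fell (-0.89 ± 0.24, FDR 0.0112), with 1 library, replicate 38, at 266 TPM inside the vehicle range. The log2 ratio of Pnpla2 to G0s2 in TPM was 2.29 ± 0.33 (SD, n = 6) on vehicle and 3.21 ± 0.24 at BI 456906 30 nmol/kg, with no overlap of the groups (difference 0.92, exact two-sided permutation p = 0.00216, the smallest 924 arrangements can give, adjusted p = 0.013 over 12 comparisons). Semaglutide gave 3.23 ± 0.33 at 20 nmol/kg (difference 0.94, exact permutation p = 0.00216, adjusted p = 0.013, no overlap) and 3.33 ± 0.63 at 100 nmol/kg (difference 1.03, exact permutation p = 0.00433, adjusted p = 0.0173). At BI 456906 20 nmol/kg the ratio was 2.59 ± 0.72, with a difference of 0.30 that did not pass (exact permutation adjusted p = 0.569). In liver the ratio was -2.52 ± 0.59 on vehicle, and none of the 6 differences passed, the lowest exact permutation p being 0.0303 at BI 456906 10 nmol/kg (difference -0.81, adjusted p = 0.0909). The lipase was thus above its inhibitor in every eWAT library and below it in every liver library. The relation of the ratio to the level of Alb was not tested.

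**Figure D4:**
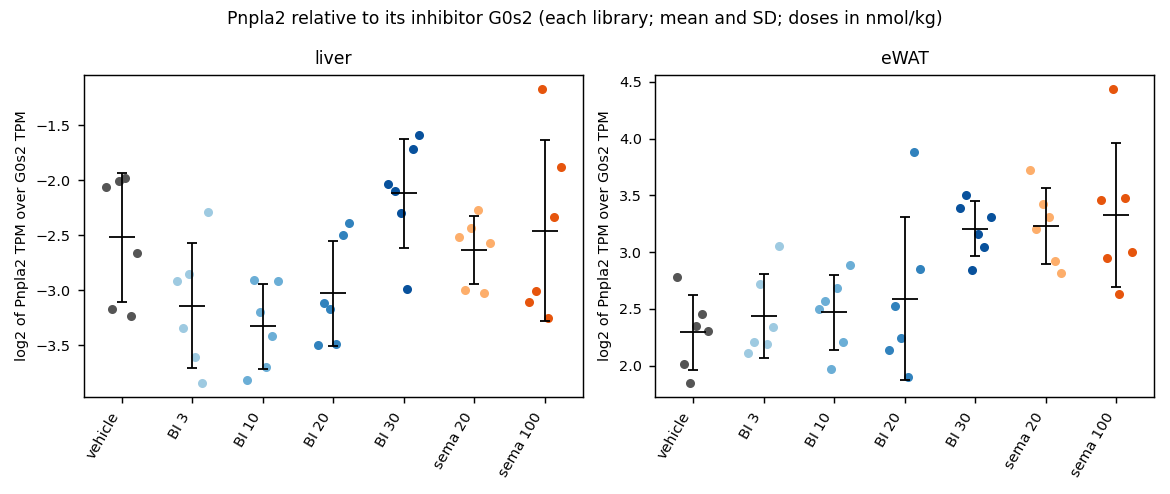
Log2 ratio of Pnpla2 to G0s2 in TPM by group, in liver (left) and eWAT (right), with 1 point per library, the mean and the SD of 6, and doses in nmol/kg. In eWAT the groups at BI 456906 30 nmol/kg and semaglutide 20 nmol/kg lie above every vehicle library, and in liver all groups overlap vehicle.

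Cidec and Plin4, both abundant in eWAT, passed there in no comparison with vehicle. Cidec stood at 1956, 2284 and 3989 TPM on vehicle, 1921, 2966 and 3846 at BI 456906 30 nmol/kg and 1084, 2060.2 and 3162 TPM at semaglutide 100 nmol/kg, with log2 fold changes of 0.14 ± 0.25 (FDR 0.709) and -0.42 ± 0.24 (FDR 0.244). Plin4 was at 522, 623 and 1161 TPM on vehicle, 348, 816 and 891 at BI 456906 30 nmol/kg and 279, 498 and 965 TPM at semaglutide 100 nmol/kg, and its change at the latter was -0.56 ± 0.28 (FDR 0.18). In both genes all groups overlapped vehicle. The direction of Plin4 at BI 456906 30 nmol/kg (-0.029 ± 0.29) turned under 4 other settings, so that none is given. Mogat1, which fell by 3.02 on the log2 scale in liver, was at 6.45, 9.63 and 25.6 TPM on vehicle and 8.83, 15.9 and 17.5 TPM at 30 nmol/kg in eWAT (0.32 ± 0.35, FDR 0.529). The medians of Mogat1 in eWAT were 9.63 TPM on vehicle, 10.9, 7.79, 9.68 and 15.9 TPM at 3, 10, 20 and 30 nmol/kg of BI 456906, and 11.5 and 9.64 TPM at 20 and 100 nmol/kg of semaglutide.

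The medians of Cidec in eWAT were 2284 TPM on vehicle, 2527, 1872, 2715 and 2966 TPM at 3, 10, 20 and 30 nmol/kg of BI 456906, and 2494 and 2060.2 TPM at 20 and 100 nmol/kg of semaglutide. Plin2 was at 1310.4, 1689 and 2194 TPM on vehicle and 2013, 2484 and 2964 TPM at semaglutide 100 nmol/kg (0.55 ± 0.21, FDR 0.0647). That change passed in 4 of 11 other settings. The medians of Plin2 were 2250, 2415, 2186 and 1700 TPM at 3, 10, 20 and 30 nmol/kg of BI 456906. At semaglutide 20 nmol/kg the median was 2315 TPM.

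The spread of several members within groups went with the cell type markers of each library. Over the 42 eWAT libraries the log2 level of Cidec had a Pearson correlation of 0.93 with the summed adipocyte markers, and of 0.94 after the group means were removed. The values after removal were 0.96 for Plin4, 0.96 for Pnpla2, 0.93 for Mogat1, 0.76 for Cidea, 0.65 for G0s2 and 0.53 for Plin5, and lower for Cideb (0.22) and Hsd17b13 (0.09). Plin2 went the other way, with -0.86 against the adipocyte markers and 0.94 against the 6 summed macrophage markers. The points share libraries and scaling, and the values are descriptions. The adipocyte markers summed to 16689.8, 18884 and 32676 TPM on vehicle, 16024, 27798 and 30009 at BI 456906 30 nmol/kg and 11363, 17641 and 27042 TPM at semaglutide 100 nmol/kg, with none of the 7 at 0. The macrophage markers summed to 3827, 8342 and 9652, 4643, 6036 and 12443 and 7191, 10431 and 13046 TPM in the same groups. Their part in the results for Cidea, Pnpla2, G0s2 and Plin5 was not tested.

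Cideb and Hsd17b13 fell in eWAT, where the level of the hepatocyte marker Alb was lower too without passing (-3.31 ± 1.33 at BI 456906 30 nmol/kg, FDR 0.0653). Hsd17b13 was at 0.28, 17.1 and 50.9 TPM on vehicle and 0.12, 0.465 and 2.97 TPM at BI 456906 30 nmol/kg, and Cideb at 0.24, 8.67 and 28.1 and 0.24, 0.595 and 2.92 TPM. In both genes 5 of the 6 vehicle libraries were above every library at 30 nmol/kg, and the remaining one was as low as those. The log2 fold changes were -4.36 ± 1.40 (FDR 0.0222) and -2.87 ± 0.98 (FDR 0.0297), and at semaglutide 100 nmol/kg -3.56 ± 1.23 (FDR 0.0441) and -2.72 ± 0.96 (FDR 0.0485). Albumin, the product of Alb, is made in quantity by hepatocytes alone. Alb was at 9.87, 917 and 3679.7 TPM in the eWAT of vehicle mice, 12.1, 59.4 and 548 at BI 456906 30 nmol/kg and 3.47, 47.2 and 747 TPM at semaglutide 100 nmol/kg. Of the 7 hepatocyte markers none was at 0 in eWAT, and their sum was 114, 1864 and 6495 TPM on vehicle, 471, 1522 and 2482 at BI 456906 30 nmol/kg and 128, 703 and 1788 TPM at semaglutide 100 nmol/kg. Ttr alone of the 7 passed at 30 nmol/kg (-3.96 ± 1.41, FDR 0.037), and Apoa1 (-3.11), Serpina1c (-3.12), Fgb (-2.92) and Cps1 (-2.77) were lower to about the degree of Alb without passing. Cyp2e1, which makes up most of the sum at 30 nmol/kg, had the opposite sign (1.67 ± 0.79, FDR 0.119).

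Per 1000 TPM of Alb, Hsd17b13 was at 11, 16.6 and 20.5 in the liver of vehicle mice and at 13, 18.2 and 28.4 in their eWAT. At BI 456906 30 nmol/kg the same ratio was 6.57, 7.01 and 7.94 in liver and 5.42, 9.32 and 10.9 in eWAT, and in both groups the ranges of the tissues overlapped. For Cideb the ratio on vehicle was 6.02, 7.22 and 7.97 in liver and 7.53, 8.8 and 24.3 in eWAT, the ranges just meeting. At BI 456906 30 nmol/kg it was 3.68, 3.86 and 4.13 in liver and 5.33, 15.2 and 29.9 in eWAT, above every liver library. With the log2 level of Alb as a covariate, an alternative added after the data were seen, Cideb no longer passed at BI 456906 30 nmol/kg (-0.67 ± 0.31, FDR 0.117) or semaglutide 100 nmol/kg (-0.52 ± 0.31, FDR 0.336). At BI 456906 20 nmol/kg, where neither passed without the covariate, both passed with it (Cideb -1.28 ± 0.32, FDR 0.0195, and Hsd17b13 -1.15 ± 0.25, FDR 0.00728). At the highest doses of BI 456906 and semaglutide Hsd17b13 still passed, at -1.52 ± 0.28 (FDR 0.000313) and -0.96 ± 0.25 (FDR 0.0161). Under the same covariate Cidea kept its rise (0.99 ± 0.34, FDR 0.034) and Plin5 its fall on semaglutide 100 nmol/kg (-0.88 ± 0.20, FDR 0.00706), but G0s2 did not (-0.63 ± 0.25, FDR 0.12). The calls of Plin5 at semaglutide 20 nmol/kg (-0.58 ± 0.20, FDR 0.105) and BI 456906 10 nmol/kg (-0.63 ± 0.18, FDR 0.193) were lost as well.

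**Figure D5:**
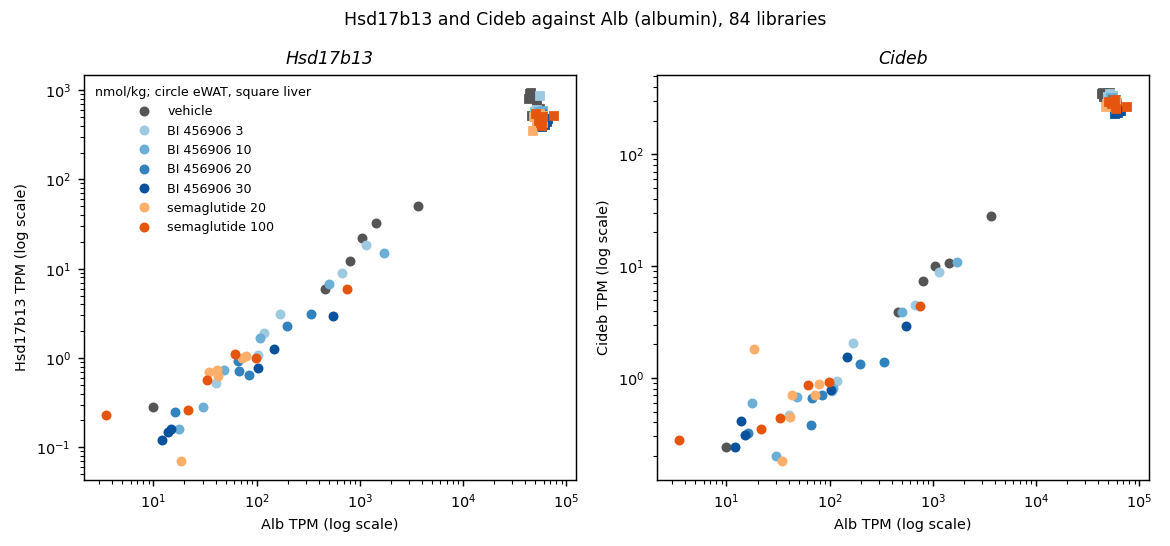
TPM of Hsd17b13 (left) and Cideb (right) against TPM of Alb in the 84 libraries, both axes logarithmic, circles for eWAT and squares for liver, coloured by group (doses in nmol/kg). The eWAT libraries rise along with Alb toward the liver libraries, and the highest eWAT point is a vehicle library with 50.9 TPM of Hsd17b13.

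The responses of the tissues were compared directly, as an interaction in 1 fit of the 84 libraries. The labels do not say which liver and eWAT libraries came from 1 mouse, so they were treated as separate samples. For BI 456906 30 nmol/kg against vehicle, 6 of the 10 genes differed between liver and eWAT (background 44.7% of 15297 genes), and for semaglutide 100 nmol/kg also 6 (32.8%). Cidea had the largest difference, liver minus eWAT, at -7.72 ± 1.02 for BI 456906 (FDR 3.26e-09), followed by Hsd17b13 at 3.53 ± 1.11 (FDR 0.00668) and Mogat1 at -3.35 ± 0.53 (FDR 3.12e-07). Plin5 differed by 1.98 ± 0.31 (FDR 2.15e-07) for BI 456906 and 2.06 ± 0.34 (FDR 2e-06) for semaglutide. Cideb differed by 2.26 ± 0.75 (FDR 0.0105) and Cidec by -1.67 ± 0.65 (FDR 0.0297) for BI 456906, and G0s2 by 0.91 ± 0.34 (FDR 0.0349) for semaglutide. For Hsd17b13 and Cideb the eWAT side of these differences went with the level of Alb, as given above. For Plin5 the eWAT change at BI 456906 30 nmol/kg went from -0.52 ± 0.21 to -0.050 ± 0.18 (FDR 0.868) with Alb as a covariate. At semaglutide 100 nmol/kg the change of Plin5 went from -1.38 to -0.88 and still passed. The tissue differences themselves were not tested with that covariate. For semaglutide Cidea (-2.74), Mogat1 (-1.67), Cideb (2.37) and Hsd17b13 (2.85) differed in the same directions as for BI 456906, against the same vehicle libraries. Plin2, Plin4 and Pnpla2 passed in neither comparison.

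The compounds were given at one common dose, 20 nmol/kg, and were compared there in both tissues, 10 genes in each. None of the 10 differed in liver (background 2.42%), where 1, Cidea, had an unadjusted p under 0.05 and edgeR and DESeq2 called 0 each. Over all 15964 genes 2307 had such a p there, edgeR called 366 and DESeq2 550. The differences, BI 456906 minus semaglutide, had 95% intervals of -0.12 to 0.13 for Cideb, -0.25 to 0.26 for Hsd17b13, -0.45 to 0.38 for Plin5, -0.87 to 0.39 for Mogat1 and -3.69 to -0.051 for Cidea, on the log2 scale. The interval is narrow for Cideb and leaves room for a large difference for Cidea. In eWAT none of the 10 passed and no gene at all did (background 0%), with 815 genes and 1 member, G0s2 (0.63 ± 0.24), at an unadjusted p under 0.05. There edgeR called 0 genes and DESeq2 4 genes, of which 0 were members.

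At the highest dose of each, which differ, BI 456906 30 nmol/kg left Cideb lower (-0.25 ± 0.062, FDR 0.00681) and Plin5 higher (0.79 ± 0.21, FDR 0.0123) in liver than semaglutide 100 nmol/kg, 2 of 10 with a background of 9.75%. The Cideb libraries of the 2 groups did not overlap (228, 238 and 246 against 253, 286 and 307 TPM), and those of Plin5 met only through replicate 81 of semaglutide, at 252 TPM. Cidea (-3.56 ± 1.40, FDR 0.0986) and Mogat1 (-1.0 ± 0.37, FDR 0.0762) were lower with BI 456906 without passing, and each passed in 6 other settings (6 of 10 and 6 of 11). Plin4 (0.70 ± 0.24, FDR 0.06) and Plin2 (0.41 ± 0.20, FDR 0.192) were higher with BI 456906, also without passing, and the Plin4 libraries of the groups did not overlap. In eWAT none of the 10 passed (background 0.0108%), while 5 had an unadjusted p under 0.05, edgeR called 1 and DESeq2 2. Over all genes, 4567 of 18536 had an unadjusted p under 0.05, edgeR called 302 and DESeq2 967. The nearest was Cidea at 1.42 ± 0.32 (FDR 0.054).

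Of 30 other genes of droplets and triglyceride synthesis, 28 were tested in liver, and 20 passed at BI 456906 30 nmol/kg, 9 upward and 11 downward, beside 58.8% of all tested genes. Their median log2 fold change was -0.11, against -0.034 over all genes. At semaglutide 100 nmol/kg 12 passed, 6 in each direction, beside 48.2%. Of the coat and lipolysis genes 5 of 7 fell at 30 nmol/kg and none rose, where 29.9% of all genes fell and 28.9% rose. Lipa, the lysosomal acid lipase, changed by -0.80 ± 0.10, Plin3 by -0.73 ± 0.12, Lipe, the hormone-sensitive lipase, by -0.53 ± 0.065, Abhd5, the co-activator of Pnpla2, by -0.23 ± 0.059 and Mgll, the monoacylglycerol lipase, by -0.22 ± 0.10. Of the 11 genes of droplet formation 3 rose and 5 fell. Fitm1, which partitions triglyceride into nascent droplets, went from 84.5, 99.6 and 104 to 16.2, 19.8 and 22.7 TPM, with no overlap (-2.37 ± 0.19, FDR 1.78e-12), and Vps13c, a lipid transfer protein, from 1, 2.08 and 3.24 to 3.05, 5.09 and 6.86 TPM, the ranges just meeting (1.24 ± 0.17, FDR 1.42e-07).

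Of the 10 other triglyceride synthesis genes tested in liver 6 rose and 1 fell, against the same background of 28.9% and 29.9%. Lpin1, which makes diacylglycerol from phosphatidic acid and also acts as a coactivator in the nucleus, went from 19.4, 23.3 and 30.6 to 143, 254 and 287 TPM at BI 456906 30 nmol/kg (3.19 ± 0.46, FDR 2.56e-07) and 118, 195 and 245 TPM at semaglutide 100 nmol/kg. Lpin2 (1.19 ± 0.17) and Gpat3, which acylates glycerol-3-phosphate (1.04 ± 0.14), also more than doubled. The final acyltransferases moved little: Dgat1 by 0.18 ± 0.074 (FDR 0.0371) and Dgat2 by -0.27 ± 0.10 (FDR 0.0183).

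In eWAT all 30 of these genes were tested, and 13 passed at BI 456906 30 nmol/kg, 6 upward and 7 downward, beside 23.9% of all genes, and 9 at semaglutide 100 nmol/kg, 2 upward and 7 downward, beside 14.9%. Dgat2, the main diacylglycerol acyltransferase of adipocytes, went from 574, 751 and 1147 TPM on vehicle to 83.9, 191 and 254 TPM at 30 nmol/kg and 58, 157 and 374 TPM on semaglutide, below every vehicle library (-2.30 ± 0.38 and -2.48 ± 0.38, FDR 5.74e-05 and 3.71e-05). Mogat2, the relative of Mogat1, went from 3.51, 5.4 and 9.87 to 0.23, 0.72 and 1.14 TPM (-3.17 ± 0.48, FDR 1.98e-05), and Pnpla3, the relative of Pnpla2, from 13.8, 21.1 and 24.9 to 1.86, 4.55 and 7.66 TPM (-2.25 ± 0.33, FDR 1.44e-05), neither overlapping vehicle. Both genes fell on semaglutide 100 nmol/kg as well (-3.28 ± 0.49 and -1.87 ± 0.31). Mogat2 and Pnpla3 thus fell in eWAT where Mogat1 and Pnpla2 did not pass.

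Among the rest in eWAT, Lpin1 rose at BI 456906 30 nmol/kg (1.24 ± 0.39, FDR 0.0205) and Agpat2 fell on semaglutide 100 nmol/kg (-1.05 ± 0.19, FDR 0.000208). Lpin3 was at 3.93, 5.2 and 6.45 TPM on vehicle and 7.65, 11 and 13.6 TPM at BI 456906 30 nmol/kg, without overlap. Hilpda, of the coat and lipolysis genes, was at 24.8, 35.6 and 47.1 TPM on vehicle. It was at 43.5, 65.8 and 186 TPM at semaglutide 100 nmol/kg, the ranges just meeting. Fitm1 fell by 3.59 on the log2 scale at 30 nmol/kg, from a level of 0.36, 2.56 and 7.94 TPM on vehicle, and its relation to Alb was not tested. Abhd5 rose at BI 456906 30 nmol/kg (0.57 ± 0.17, FDR 0.015), and Plin1, the perilipin that holds Abhd5 on the adipocyte droplet, fell on semaglutide 100 nmol/kg (-0.92 ± 0.28, FDR 0.0224). Lipe (-0.039 ± 0.26), Plin3 (0.028 ± 0.12) and Dgat1 (-0.082 ± 0.22) did not pass at 30 nmol/kg.

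Some pairs of the 10 genes varied together from mouse to mouse. Over all pairs in liver the Pearson correlation after removal of the group means ran from -0.44 to 0.83, and many were near 0, such as -0.056 for Plin5 with G0s2 and -0.08 for Cidea with Cideb. On the same measure Pnpla2 had 0.83 with Plin5 and 0.77 with Cidec over 42 libraries, and Cidec and Plin5 had 0.62. With the group means left in, the last pair had 0.06, with Cidec lower and Plin5 higher in the treated groups than on vehicle. Mogat1 and Cideb had 0.86 with the group means and 0.37 without. In eWAT the pair of Cideb and Hsd17b13 had 0.87 without group means, and Cidec with Mogat1 0.91. These values share libraries and scaling and carry no test.

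The genes whose log2 levels followed Cidec most closely over the 42 liver libraries were Apoa4 (Pearson correlation 0.85), Gm10680 (0.83) and Cgref1 (0.82). Apoa4, an apolipoprotein of triglyceride-rich particles, was at 1973, 4073 and 5002 TPM on vehicle and 556, 876 and 1899 TPM at BI 456906 30 nmol/kg. For Mogat1 in liver they were Lgals1 (0.96), Msra (0.96) and Cryz (0.95). Lgals1, which encodes a galectin, went from 71.8, 150.4 and 196 TPM on vehicle to 12.4, 17.5 and 27 TPM at 30 nmol/kg, without overlap. For Cidec in eWAT they were Ano10 (0.95), Sh3glb1 (0.95) and Pex19 (0.95).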

How the data were processed

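Liver and eWAT RNA libraries, 6 per group, were described by the sources with differing kits and read types, and STAR 2.5.2b, RSEM 1.3.0, featureCounts 1.5.1 and FastQC 0.11.5 with mm10/GRCm38 are named in the submitters' processing notes. The deposited read tables hold a signal, the reads per gene divided by 1 factor per library. All nonzero values were whole multiples of 1 step per library (tolerance 0.01), so whole reads were recovered. The deposited TPM tables were used as given. Of 48794 identifiers 48348 were paired with symbols (GENCODE M21). Among 105 within-group library pairs per tissue none agreed within sampling noise.

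The signal was tested with limma/voom (limma 3.58.1 and edgeR 4.0.16 in R 4.3.3), TMM scaling, an offset of 0.5 and filterByExpr, with moderated tests adjusted by Benjamini-Hochberg over all genes (FDR 0.05). limma/voom was the method of the study, and it was run on the signal as it stands. The alternatives were edgeR and DESeq2 1.42.0 on recovered reads, limma on log2(TPM + 1) and log2(TPM + 0.1), other scalings, other filters, sample quality weights, fits of the compared groups alone and the fit without liver replicate 70. Fits were tested on simulated data first. The Pnpla2 to G0s2 ratio was tested by exact permutation. Genes of the wider lists were named when past the study's rule at either highest dose (at most 6 per tissue, by size), beside Plin1, Plin3, Abhd5, Lipe, Dgat1 and Dgat2. Lipa, Mgll, Lpin3 and Hilpda, outside that rule, were picked once their values were known. The 10 members and all lists were chosen with earlier results of these data known. Whether the mice of a group were littermates, or cage mates before they were housed singly, is not given. The p-values measure the spread between these libraries.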

Additional observations from a re-analysis of the deposited data

Results flagged for a closer look

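The 140 groups of 6 libraries (10 genes, 7 groups, both tissues) were searched for a library standing apart. In 16 of them 1 library's gap to its nearest neighbour, as a share of the group's range, was above Dixon's 95% critical value. Chance gives about 1 in 20 for normally distributed values. Whether the TPM values were so distributed was not tested, and each flagged library was the highest of its group. In liver, BI 456906 3 nmol/kg replicate 54 stood high for Cidea (51.5 TPM) and Plin4 (69.99 TPM), replicate 71 at 30 nmol/kg for Cidea (2.99 TPM), and semaglutide 100 nmol/kg replicate 80 for Cidea (13.1 TPM). Semaglutide 100 nmol/kg replicate 81 stood high for both Cidec (140.3 TPM) and Plin5 (252 TPM) in liver.

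In eWAT, BI 456906 3 nmol/kg replicate 9 stood high for both Cidec (4610.4 TPM) and Pnpla2 (2087 TPM), and vehicle replicate 6 for Cidea (8.10 TPM). Replicate 42 of semaglutide 100 nmol/kg stood high for Cideb (4.41 TPM) and Hsd17b13 (5.96 TPM), and it held the highest Alb level of its group, 747 TPM. Cideb was also high in vehicle replicate 2 (28.1 TPM) and BI 456906 10 nmol/kg replicate 15 (11.0 TPM). At BI 456906 30 nmol/kg Plin2 was high in replicate 29 (2811 TPM) and Plin5 in replicate 27 (12.4 TPM), and at semaglutide 100 nmol/kg G0s2 was high in replicate 38 (266 TPM).

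Responses that differed between the tissues by the limma/voom interaction, as log2 fold change in liver minus that in eWAT, were those of Cidea (-7.72), Cideb (2.26), Cidec (-1.67), Plin5 (1.98), Mogat1 (-3.35) and Hsd17b13 (3.53) for BI 456906 30 nmol/kg. For semaglutide 100 nmol/kg they were those of Cidea (-2.74), Cideb (2.37), Plin5 (2.06), G0s2 (0.91), Mogat1 (-1.67) and Hsd17b13 (2.85). For Cidec at semaglutide 100 nmol/kg the value did not pass: -1.15 ± 0.64 (FDR 0.161). Cideb and Hsd17b13 fell in both tissues, and their eWAT levels went with Alb, as given above. With Alb as a covariate the eWAT changes at BI 456906 30 nmol/kg were -0.67 for Cideb, -1.52 for Hsd17b13 and -0.050 for Plin5. The tissue differences were not tested with that covariate.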

How the results depend on the processing

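No paired analysis was possible because the groups share no replicate numbers. Of the recomputed counts of passing members 180 stayed within 1.5 times the main count and 44 did not, and of the recomputed values 422 kept their direction and side of the threshold, 8 reversed, 8 newly passed and 9 no longer passed. The cause of the changes below was not tested. The counts below stand without the share of all genes passing under the same setting, and are not read as a result about the members. In liver, BI 456906 3 nmol/kg against vehicle (3 members) gave 1 with limma on log2(TPM + 1) or log2(TPM + 0.1), 5 with sample quality weights and 0 in a fit of the compared groups alone. BI 456906 30 against semaglutide 100 nmol/kg (2 members) gave 4 with edgeR, DESeq2 or either TPM fit, 6 with quality weights and 5 with the compared groups alone. The other counts changed in eWAT only. Quality weights gave against vehicle 1 member at 3, 4 at 10, 3 at 20 and 5 at 30 nmol/kg of BI 456906, 3 at semaglutide 20 nmol/kg, 7 for BI 456906 30 against semaglutide 100 nmol/kg and 7 for BI 456906 30 against 10 nmol/kg. For BI 456906 10 nmol/kg (1 member, Plin5) edgeR, DESeq2, both TPM fits, no filter, the compared groups alone and the Alb covariate gave 0. For BI 456906 20 nmol/kg (0 members) edgeR, DESeq2, log2(TPM + 1) and the Alb covariate gave 2 and log2(TPM + 0.1) gave 1. For semaglutide 20 nmol/kg (1 member) edgeR, DESeq2 and both TPM fits gave 3 and the Alb covariate 0. For semaglutide 100 nmol/kg (4 members) no filter, the Alb covariate and a filter of at least 10 in every library gave 2 each. That filter removed Cideb and Hsd17b13 from eWAT and Cidea from liver, and gave 1 for BI 456906 30 nmol/kg, 2 for the dose trend and 1 for BI 456906 30 against semaglutide 100 nmol/kg. The last contrast (0 members) gave 1 with library size alone, 1 with edgeR and 2 with DESeq2 or the Alb covariate. Quality weights turned the log2 fold change at BI 456906 30 nmol/kg of G0s2 in liver to 0.042 and of Plin2 and Plin4 in eWAT to -0.12 and 0.21. Library size alone turned G0s2 in liver at semaglutide 100 nmol/kg to -0.032 and Plin4 in eWAT at BI 456906 30 nmol/kg to 0.034, where no filter gave 0.0025 and the Alb covariate 0.14, with G0s2 at 7.2e-06. None of these values passed. Library size alone moved the median of all genes by -0.11 for the tissue difference at BI 456906 30 nmol/kg and by less elsewhere. Depth limits Cidea in liver at BI 456906 30 nmol/kg, where 1 library held 1 read.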

Other observations

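Mesothelial markers, for the cells that line the epididymal fat pad, rose in 3 of 4 cases in eWAT at BI 456906 30 nmol/kg: Upk3b changed by 1.93 ± 0.60 (FDR 0.0178), Msln by 1.85 ± 0.56 (FDR 0.0155) and Krt19 by 1.45 ± 0.55 (FDR 0.049), while Lrrn4 did not pass (1.47 ± 0.57, FDR 0.058). Their sum was 3.37, 48.5 and 114 TPM on vehicle and 45.4, 107 and 168 TPM at 30 nmol/kg. Of all genes tested in eWAT, 23.9% passed at this dose. The epididymis markers summed to 0 to 4.79 TPM over the eWAT libraries. In liver the macrophage markers summed to 93.8, 145 and 194 TPM on vehicle and 97.2, 108 and 110.0 TPM at BI 456906 30 nmol/kg. Trem2 (-1.26 ± 0.39), Cd68 (-0.65 ± 0.17) and Lyz2 (-0.54 ± 0.19) fell there, 3 of the 6, where 29.9% of all genes tested in liver fell. The stellate cell and fibroblast markers summed to 139, 209 and 295 and 117, 126 and 190.3 TPM in the same groups, and all 5 fell (Col3a1 -2.39 ± 0.33, Col1a1 -2.19 ± 0.40, Pdgfrb -0.97 ± 0.24, Lrat -0.86 ± 0.21 and Dcn -0.46 ± 0.14). The adipocyte markers Cfd (-8.99 ± 1.05) and Fabp4 (-0.81 ± 0.23) fell in liver too. The part of these cells in the results above was not tested.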
